A study of Mus musculus with 8 samples.

Results

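The 10 genes described here are imprinted genes of the mouse, chosen by symbol: Dlk1, Meg3, Rian and Mirg of the Dlk1-Meg3 locus on chromosome 12, Igf2 and H19 of the Igf2-H19 locus on chromosome 7, and Peg3, Cdkn1c, Grb10 and Plagl1, which were treated singly. All 10 were among the 18990 genes of the expression table. All 10 passed the filter of a mean of 1 CPM or more that left 13866 genes for testing. CPM are reads per 1000000 of the library size behind the deposited values, which was 0.951 to 1.05 times the reads on genes. RNA was sequenced from wild-type BL6 primary mouse embryonic fibroblasts (MEFs) on their way to induced pluripotent stem cells. All groups carried lentiviruses with the tet-STEMCCA cassette (Oct4, Sox2, Klf4 and c-Myc) and rtTA, all received doxycycline with the GSK3 inhibitor chiron, an Alk5 inhibitor, ascorbic acid and LIF, and all had been transfected with a pool of siRNAs at 40 nM. The siRNAs were against Ncor1 (siNcor1) or Oct4 (siOct4), and cells were taken at days 3 and 6 of reprogramming, with 2 libraries for each of the 4 groups. Each library was a bulk culture in which reprogrammed and unreprogrammed cells were mixed, and libraries with a non-targeting siRNA were not analysed here, so each difference given sets one knockdown, or one day, against the other.

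The libraries held between 7735742 and 16445192 reads on genes. Ncor1 was at 135 and 146 CPM in the day 3 libraries labelled siNcor1 against 226 and 245 CPM in those labelled siOct4, whereas the day 6 libraries overlapped, at 153 and 156 against 160 and 140 CPM. Pou5f1 encodes OCT4. In the libraries labelled siOct4 it was at 185 and 197 CPM at day 3, just under the 197 and 205 CPM of those labelled siNcor1, and at day 6 it lay above them, at 700 and 501 against 187 and 160 CPM. The table does not separate reads of the cassette from those of the resident gene. The groups are therefore called by their labels throughout.

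Imprinted genes are expressed mainly from the copy inherited from one parent, according to a methylation mark set in the germ line and kept through cell division. At the Dlk1-Meg3 locus the paternal copy gives Dlk1, a membrane protein of the Notch ligand family, and the maternal copy gives the non-coding RNAs Meg3, Rian and Mirg, of which Rian hosts small nucleolar RNAs and Mirg a cluster of microRNAs. At the Igf2-H19 locus the growth factor gene Igf2 is paternal and the non-coding RNA H19 maternal, and both draw on shared enhancers beyond H19. The locus around Meg3 is known for its silencing in a share of mouse induced pluripotent stem cell lines. The reads of the table were not split by parent, so the values are sums over both copies.

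The reference places Dlk1 at chr12:109452823-109463336, Meg3 at chr12:109541001-109571726, Rian at chr12:109603940-109661716 and Mirg at chr12:109729764-109749460, all on the plus strand of GRCm38. H19 lies at chr7:142575529-142578143 and Igf2 at chr7:142650766-142666816, both on the minus strand. On the same chromosome and strand are Cdkn1c at chr7:143458339-143461050 and Peg3 at chr7:6703892-6730431. Grb10 is at chr11:11930508-12038683 on the minus strand and Plagl1 at chr10:13060504-13131694 on the plus strand. These are whole-gene spans from GENCODE M21, introns and untranslated exons included.

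Promoter windows of RefSeq (GRCm38.p6, 250 bases before to 50 after an annotated start) were matched for 8 of the 10 genes, in 13 windows, and not for H19 and Cdkn1c. The windows were searched on both strands for TATAAA, TGACGTCA (the palindromic cyclic AMP response element), ATGCAAAT (the octamer bound by OCT family proteins), GGGGCCCC (a core bound by PLAGL1) and GGGCGG (the GC box), none of which holds another. The Meg3 window at chr12:109540746-109541045, on the plus strand, and the Peg3 window at chr7:6730370-6730669, on the minus strand, are printed because they begin a non-coding and a coding member and were the windows that held TGACGTCA, which 1.79% of the 32851 promoters held. Capitals mark the motif matches.
Meg3: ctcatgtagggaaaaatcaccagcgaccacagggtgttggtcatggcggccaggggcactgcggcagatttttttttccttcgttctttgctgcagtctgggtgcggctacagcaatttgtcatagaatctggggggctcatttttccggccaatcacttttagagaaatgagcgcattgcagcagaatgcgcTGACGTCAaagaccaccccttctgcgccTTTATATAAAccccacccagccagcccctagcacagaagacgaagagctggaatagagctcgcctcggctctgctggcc
Peg3: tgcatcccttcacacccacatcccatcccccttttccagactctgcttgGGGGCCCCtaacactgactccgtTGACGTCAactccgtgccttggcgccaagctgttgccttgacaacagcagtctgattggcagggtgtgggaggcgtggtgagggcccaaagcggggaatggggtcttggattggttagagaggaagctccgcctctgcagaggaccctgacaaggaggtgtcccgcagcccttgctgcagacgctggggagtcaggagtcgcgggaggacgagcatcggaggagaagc
In the Meg3 window TGACGTCA began at base 194, and TATAAA matched at base 226 and, on the other strand, at base 222. It was in 13.6% of promoters. In the Peg3 window TGACGTCA began at base 73 and GGGGCCCC, found in 1.08% of promoters, at base 50. The GC box, in 35.7% of promoters, matched in windows of Igf2, Grb10 and Plagl1. The octamer, in 1.74% of promoters, matched in none of the 13 windows. Not every window lay at the gene start of GENCODE. The only windows of Mirg and Plagl1 lay 5217 and 30328 bases from it. Windows of Igf2 lay up to 9320 bases away, and those of Grb10 1263 and 10712. Both printed windows held 13 CpG dinucleotides, against a median of 7 over all promoters.

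The non-coding members also span microRNA hairpins, so the mature sequences show what their transcripts can carry. RefSeq placed 1 hairpin within H19, 1 within Igf2, 2 within Meg3, 3 within Rian and 14 within Mirg on the host's strand. Among all their mature microRNAs a single seed (bases 2 to 8, in capitals) was shared, GGUUGCC of miR-453 and miR-496a-5p in Mirg. A few are printed, from each non-coding host and from Igf2, with that pair first.
miR-453: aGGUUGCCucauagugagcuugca
miR-496a-5p: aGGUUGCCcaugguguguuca
miR-410-3p: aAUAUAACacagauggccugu
miR-370-3p: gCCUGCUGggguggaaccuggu
miR-770-3p: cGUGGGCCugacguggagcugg
miR-675-5p: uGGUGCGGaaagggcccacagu
miR-675-3p: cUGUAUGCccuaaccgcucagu
miR-483-3p: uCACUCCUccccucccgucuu
miR-453, miR-496a-5p and miR-410-3p lie in Mirg, miR-370-3p in Rian, miR-770-3p in Meg3, both arms of miR-675 in H19, and miR-483-3p in Igf2. Mature microRNAs were not measured by this assay. Of 13 small RNA genes of the table near the Dlk1-Meg3 locus, none passed the filter and none had more than 9 reads in a library.

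In the Dlk1-Meg3 locus every gene had its lowest group mean in the day 6 libraries labelled siOct4. Dlk1, which modulates Notch signalling and restrains adipocyte differentiation, was at 4.11 and 3.47 log2-cpm (276 and 189 reads) in siNcor1 at day 3, at 3.99 and 3.73 in siOct4 at day 3, at 3.03 and 3.02 in siNcor1 at day 6, and at 1.77 and 1.89 (31 and 42 reads) in siOct4 at day 6. The day 3 groups of Dlk1 overlapped, both lay above siNcor1 at day 6, and that group lay above siOct4 at day 6. Meg3, the non-coding RNA at the head of the maternal transcripts, was at 5.95 and 5.73, 5.80 and 6.51, 5.33 and 5.52, and 5.14 and 4.38 log2-cpm in the same order of groups. The Meg3 libraries of siOct4 were apart at both days, by more than the siNcor1 libraries were.

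Rian, the host of C/D small nucleolar RNAs, was at 6.68 and 6.53 log2-cpm in siNcor1 at day 3, 6.83 and 6.90 in siOct4 at day 3, 6.38 and 6.41 in siNcor1 at day 6, and 5.23 and 5.98 in siOct4 at day 6. Its groups did not overlap at any step of that order. The day 6 libraries labelled siOct4 went opposite ways for Meg3 and Rian: replicate 1 held 332 reads of Meg3 and 353 of Rian, and replicate 2 held 243 and 742. Mirg, the microRNA host, was at 3.49 and 3.21, 3.60 and 3.56, 3.65 and 3.23, and 2.35 and 2.84 log2-cpm in the same order, so that siNcor1 at day 6 overlapped both day 3 groups and siOct4 at day 6 lay below all of them.

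The Igf2-H19 genes had their highest mean in siNcor1 at day 6 and their lowest in siOct4 at day 6. H19, a growth-restraining non-coding RNA, was at 9.36 and 9.32 log2-cpm (10599 and 11007 reads) in siNcor1 at day 3, 8.93 and 8.77 in siOct4 at day 3, 10.47 and 10.63 (17119 and 18888 reads) in siNcor1 at day 6, and 8.03 and 8.32 (2468 and 3767 reads) in siOct4 at day 6. No group of H19 overlapped the next in that order. Igf2, the ligand that drives fetal growth through IGF1R, was at 5.16 and 4.49, 4.79 and 4.07, 5.67 and 5.26, and 3.08 and 3.2 log2-cpm. Its day 3 groups overlapped, with siNcor1 at day 6 above and siOct4 at day 6 below them. Per kilobase of exon, H19 ranged from 106 to 645 CPM and Igf2 from 1.46 to 8.89 CPM over the 8 libraries.

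Among the single genes, Cdkn1c, which encodes the cell cycle inhibitor p57, was high in 1 group. It was at 5.07 and 5.47 log2-cpm (405 and 525 reads) in siNcor1 at day 6, against 3.32 and 3.27 in siNcor1 at day 3, 3.25 and 2.88 in siOct4 at day 3, and 3.42 and 3.29 in siOct4 at day 6. The siOct4 group at day 6 overlapped siNcor1 at day 3. Peg3, a zinc finger protein gene expressed from the paternal copy, was at 7.99 and 7.80, 7.65 and 7.90, 7.77 and 7.98, and 5.96 and 6.33 log2-cpm in siNcor1 and siOct4 at day 3 and siNcor1 and siOct4 at day 6. Its first 3 groups overlapped and the day 6 libraries labelled siOct4 lay below all of them.

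Plagl1, a zinc finger transcription factor that restrains proliferation, was at 5.81 and 5.61, 5.80 and 5.85, 4.96 and 5.01, and 3.50 and 3.83 log2-cpm in that order. Its day 3 groups overlapped, and both day 6 groups lay below them and apart from each other. Grb10, an adaptor that dampens signalling of the insulin and IGF1 receptors, was at 9.75 and 9.55, 9.62 and 9.68, 8.93 and 9.01, and 8.71 and 8.74 log2-cpm. It moved with the day more than with the knockdown.

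**Figure D1:**
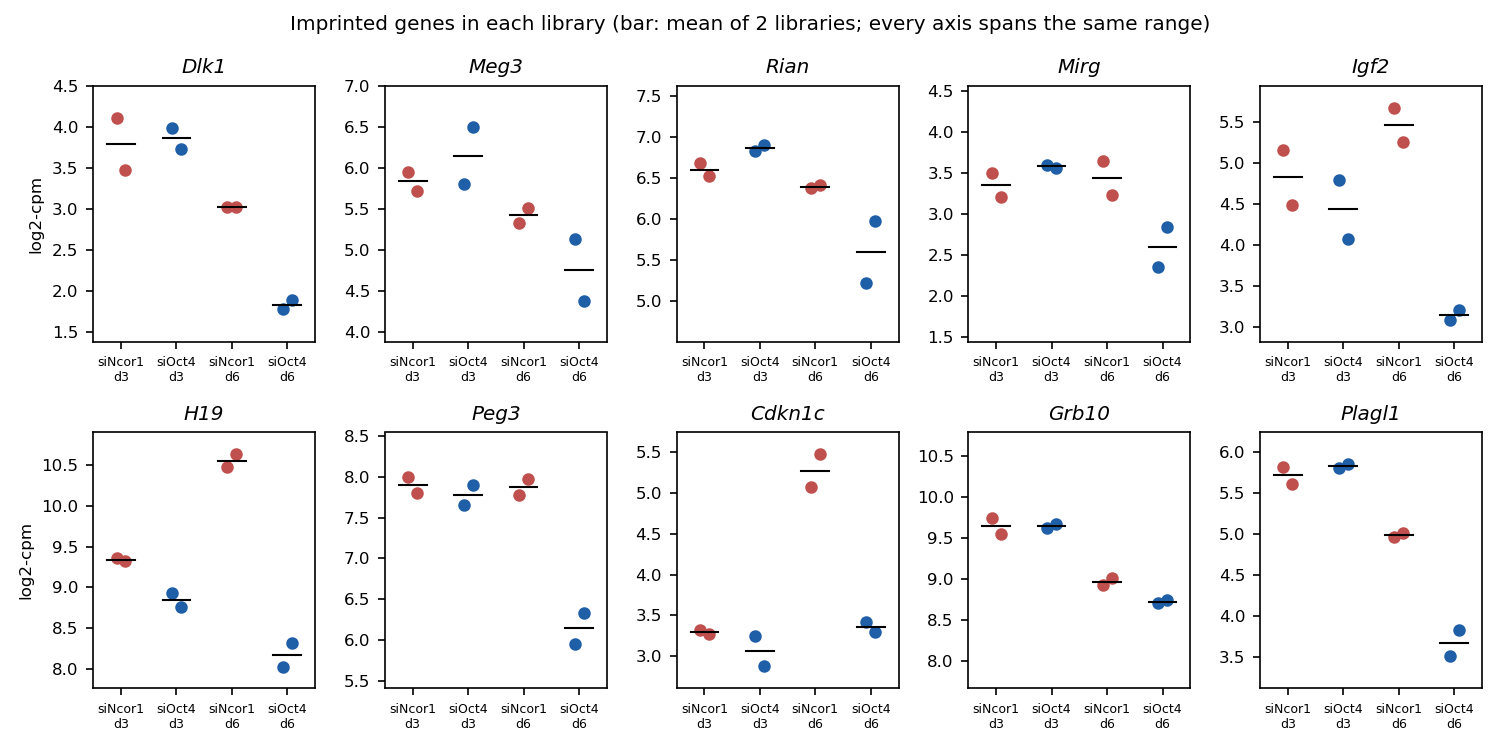
Level of each gene in each library as log2-cpm (points, 2 per group; bars are group means), with libraries labelled siNcor1 in red and siOct4 in blue at days 3 and 6 (d3, d6). The day 6 libraries labelled siOct4 sit lowest in every panel but that of Cdkn1c, where siNcor1 at day 6 stands above the other groups.

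At day 3, none of the 10 genes passed the test between the knockdowns (limma, Benjamini-Hochberg adjusted p under 0.05 over all genes tested), where 1.07% of the 13866 genes tested were called in either direction. At an unadjusted p under 0.05 the count was 1, H19, which was 1.40-fold lower in siOct4 (log2 fold change −0.49 ± 0.14, SE, adjusted p = 0.170). Igf2 had a log2 fold change of −0.40 ± 0.26 (adjusted p = 0.699), which was −0.036 without siOct4 replicate 2 and −0.75 without siOct4 replicate 1. The 4 genes of the Dlk1-Meg3 locus had values above 0, at 0.07 for Dlk1, 0.32 for Meg3, 0.26 for Rian and 0.23 for Mirg, none of which passed the test. Cdkn1c had −0.23, Peg3 −0.12, Grb10 0.0036 and Plagl1 0.11. Over the 10 genes the median was 0.037, against −0.021 over all genes tested.

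By day 6, the siOct4-labelled libraries held less of 8 of the 10 genes and more of none, where 18.6% of all genes tested were called lower and 12.1% higher. The median log2 fold change of the 10 was −1.26, and that of all genes tested −0.025. The Igf2-H19 genes were the lowest: H19 was 5.19-fold lower (log2 fold change −2.37 ± 0.14, SE, adjusted p = 7.74e-06) and Igf2 was lower by a similar size (−2.32 ± 0.26, adjusted p = 0.000291). Cdkn1c was 3.76-fold lower (−1.91 ± 0.19, adjusted p = 0.000196), Peg3 3.31-fold lower (−1.73 ± 0.15, adjusted p = 0.000109) and Plagl1 2.49-fold lower (−1.32 ± 0.15, adjusted p = 0.000291).

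In the Dlk1-Meg3 locus at day 6, Dlk1 was 2.29-fold lower (log2 fold change −1.19 ± 0.22, adjusted p = 0.00273), Mirg 1.79-fold lower (−0.84 ± 0.22, adjusted p = 0.0146) and Rian 1.73-fold lower (−0.79 ± 0.19, adjusted p = 0.0100). Meg3 did not pass the test, at −0.67 ± 0.25 (adjusted p = 0.0612). Dlk1 stayed between −1.25 and −1.14 with each library left out, whereas the other genes of the locus depended on single libraries. Without siOct4 replicate 1 of day 6, Meg3 was called at −1.05 (adjusted p = 0.00538) and Mirg was not, at −0.59 (adjusted p = 0.0671). Without siOct4 replicate 2 of day 6, Meg3 had −0.29 (adjusted p = 0.350). Rian had −0.41 without the first of these libraries (adjusted p = 0.0273) and −1.17 without the other. Meg3 was also called without siOct4 replicate 1 or 2 of day 3 (adjusted p = 0.0402 and 0.0413, with the value unmoved). Without siNcor1 replicate 1 of day 6 the call of Mirg was lost (−0.63, adjusted p = 0.122), and without siNcor1 replicate 2 of day 6 that of Rian was (−0.77, adjusted p = 0.0704). Grb10, at −0.24 ± 0.13 (adjusted p = 0.175), was the other gene not called.

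**Figure D2:**
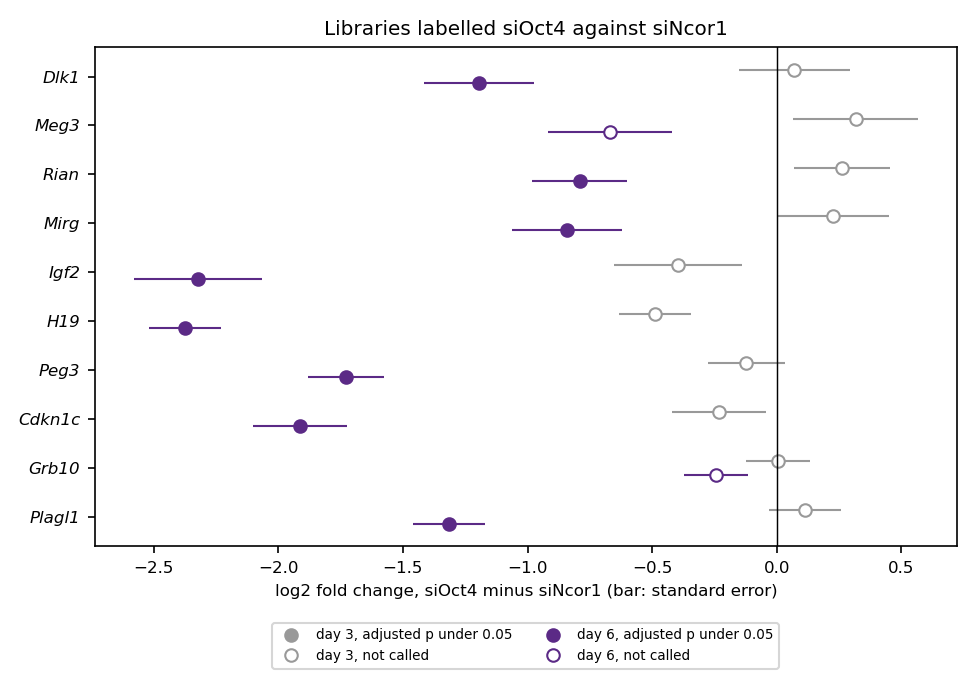
Log2 fold change of siOct4 over siNcor1 for each gene at day 3 (grey) and day 6 (purple), from limma over 2 libraries a group; bars are standard errors and filled points passed an adjusted p of 0.05. The day 3 points lie between −0.49 and 0.32, none of them called, and 8 of the 10 day 6 points are filled, between −2.37 and −0.79.

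Marker RNAs of cell types that the culture could hold also differed between the day 6 groups. Of 7 fibroblast markers, 6 were reduced in siOct4-labelled libraries (Pdgfra at −1.14, Col1a1 at −1.01, Pdgfrb at −0.95, each with an adjusted p of at most 0.00198), and their summed level was 1921 to 1992 CPM against 3532 to 3798 CPM in siNcor1. At day 3 that sum ran the other way, 8561 to 10183 CPM in siOct4 against 6172 to 6211 CPM in siNcor1, with 0 of the 7 called. Of 7 tested pluripotent cell markers, 4 were lower at day 6 in siOct4 (Dppa5a −2.81, Esrrb −2.09 and Lin28a −2.07 among them), with sums of 44.6 to 51.3 against 108 to 116 CPM. Sums of the endothelial markers were 16.7 against 16.4 to 20.9 CPM, and of the immune markers 12.1 to 12.8 against 11.3 to 12.1 CPM, with Ptprc not in the table. The neural markers Tubb3 (1.71) and Map2 (0.67) were higher and Sox10 had −0.82 (adjusted p = 0.230), with Gfap not in the table and sums of 109 to 125 against 42.9 to 46.1 CPM. Of the keratinocyte markers Krt14 was lower (−1.32), with sums of 1.90 to 2.21 against 6.20 to 8.91 CPM, and of the skeletal muscle markers Myod1, Myog and Myf5 were not in the table and the rest summed to 15.3 to 21.3 against 21.9 to 24.9 CPM, none called. The calls of Lin28a, Map2 and Krt14 were lost without siNcor1 replicate 1 of day 6, and those of Dppa5a, Esrrb, Lin28a, Map2 and Krt14 without its replicate 2 (adjusted p from 0.0546 to 0.265). That of Krt14 was also lost without siNcor1 replicate 1 of day 3 or either siOct4 library of day 6, when centred on library medians, and with totals that left out the abundant transcript Gm26917 (adjusted p from 0.0521 to 0.168). Dppa5a had −1.78 without siOct4 replicate 2 of day 6 (adjusted p = 0.0432). Dppa5a, Esrrb, Lin28a and Krt14 passed the filter only through siNcor1 at day 6, with means of 1.98 CPM or less in every other group. For such genes the filter favoured a lower value in siOct4. The part of these marker changes in the differences of the imprinted genes was not tested. In bulk RNA, fewer cells that express a gene and less RNA per cell cannot be told apart.

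Between days 3 and 6 the 10 genes split in the libraries labelled siNcor1, with 3 lower and 2 higher, where 20.9% of all genes tested were lower and 13.8% higher. Cdkn1c rose 3.93-fold (log2 fold change 1.97 ± 0.19, SE, adjusted p = 3.58e-05) and H19 rose 2.32-fold (1.21 ± 0.14, adjusted p = 0.000130). Dlk1 fell 1.70-fold (−0.76 ± 0.22, adjusted p = 0.0195), Plagl1 1.66-fold (−0.73 ± 0.15, adjusted p = 0.00275) and Grb10 1.60-fold (−0.68 ± 0.13, adjusted p = 0.00218). The call of Dlk1 was lost without siNcor1 replicate 1 of day 3 (−0.45, adjusted p = 0.201) and without siNcor1 replicate 1 or 2 of day 6 (adjusted p = 0.0882 and 0.0834). Igf2 had 0.64 ± 0.26 (adjusted p = 0.0730). It passed under 6 of 9 settings other than leaving out a library, with adjusted p between 0.0141 (only the siNcor1 libraries fitted) and 0.0447. It had 0.30 without siNcor1 replicate 2 of day 3 (adjusted p = 0.507) and 0.97 without replicate 1 (adjusted p = 0.0379). Meg3 at −0.41, Rian at −0.21, Mirg at 0.09 and Peg3 at −0.02 were not called.

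In the libraries labelled siOct4, 9 of the 10 genes fell from day 3 to day 6, where 30.5% of all genes tested were lower and 22.2% higher. Plagl1 fell 4.47-fold (log2 fold change −2.16 ± 0.15, adjusted p = 6.75e-07), Dlk1 4.09-fold (−2.03 ± 0.22, adjusted p = 2.09e-05) and Peg3 3.09-fold (−1.63 ± 0.15, adjusted p = 7.12e-06). All of the other Dlk1-Meg3 genes fell too, Meg3 by 1.40, Rian by 1.27 and Mirg by 0.98 on the log2 scale. Igf2 fell by 1.29, Grb10 by 0.93 and H19 by 0.68. Cdkn1c, the exception, had 0.30 ± 0.19 (adjusted p = 0.208), and 0.11 to 0.48 with libraries left out.

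**Figure D3:**
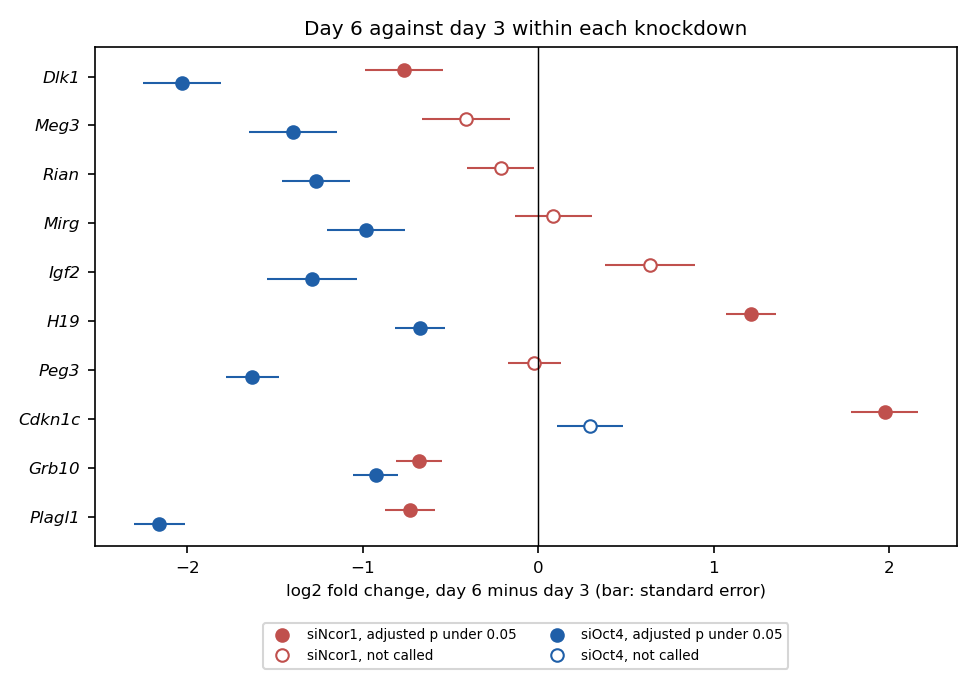
Log2 fold change of day 6 over day 3 for each gene in the libraries labelled siNcor1 (red) and siOct4 (blue), from limma over 2 libraries a group; bars are standard errors and filled points passed an adjusted p of 0.05. H19 and Cdkn1c are called higher in siNcor1, at 1.21 and 1.97, whereas every filled siOct4 point lies below 0.

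The change of the knockdown difference from day 3 to day 6 was itself tested as an interaction term, and 8 of the 10 genes passed. All 8 went towards lower values in siOct4 relative to siNcor1 at day 6. In that direction 12.9% of all genes tested passed, and in the other 7.77%. The largest sizes were those of Igf2 (−1.93 ± 0.36, SE, adjusted p = 0.00425) and H19 (−1.89 ± 0.20, adjusted p = 0.000597). Meg3 (−0.99 ± 0.35, adjusted p = 0.0679) and Grb10 (−0.25 ± 0.18, adjusted p = 0.361) did not pass. The count was 5 without siNcor1 replicate 2 of day 3, since Dlk1, Rian and Mirg were then lost with adjusted p of 0.0889, 0.102 and 0.147. One or more of these 3 was also lost without siNcor1 replicate 1 or siOct4 replicate 1 or 2 of day 3, or without siNcor1 replicate 1 or 2 or siOct4 replicate 1 of day 6 (adjusted p from 0.0503 to 0.121). Meg3 passed without siOct4 replicate 1 of day 3 or of day 6 (adjusted p = 0.0270 and 0.00573), and had −0.63 and −0.60 without replicate 2 of day 3 or of day 6 (adjusted p = 0.263 and 0.143). Rian had −0.68 without siOct4 replicate 1 of day 6 and was still called (adjusted p = 0.0106).

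Summed over its 4 genes, the Dlk1-Meg3 locus stood at 192 and 165 CPM in siNcor1 at day 3, 197 and 235 CPM in siOct4 at day 3, 143 and 148 CPM in siNcor1 at day 6, and 80.6 and 94.2 CPM in siOct4 at day 6. The Igf2-H19 locus stood at 691 and 661, 516 and 452, 1465 and 1626, and 269 and 329 CPM in the same order. At day 6 the log2 ratio of the mean sums, siOct4 to siNcor1, was −0.74 for Dlk1-Meg3 and −2.37 for Igf2-H19. At day 3 the ratios were 0.27 and −0.48, and the nearest libraries of the Dlk1-Meg3 sum stood at 192 and 197 CPM. The sums were not tested, and no gene of either locus was called at day 3. The day 3 ratio of Dlk1-Meg3 was 0.14 without siOct4 replicate 2 and 0.17 without siNcor1 replicate 2 of day 3. H19 gave between 94.7 and 97.6% of the reads of its locus in every library, so its sum is close to H19 alone. Within the Dlk1-Meg3 locus Rian gave 46.3 to 66.8% of the reads, Meg3 21.9 to 43.5%, Mirg 4.95 to 8.64% and Dlk1 3.78 to 8.87%, with no account taken of transcript length. The share of Dlk1 was lowest in the day 6 libraries labelled siOct4, at 3.78 to 4.06%, and the Meg3 share spread widest there, from 21.9 to 43.5%.

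Around the loci, the day 6 difference between the knockdowns was read for genes that start within 500 kb. Of all genes tested, 18.6% were called lower and 12.1% higher in siOct4. Near the Dlk1-Meg3 locus 3 other genes passed the filter, and 1, the unclassified transcript Gm37899 between Rian and Mirg, was called lower (−1.01 ± 0.26, adjusted p = 0.0142). Rtl1, a paternally expressed gene on the opposite strand between Meg3 and Rian, had −0.26 ± 0.23 (adjusted p = 0.414), and Begain 0.74 ± 0.34 (adjusted p = 0.115). Near the Igf2-H19 locus 13 other genes passed the filter and 4 were called lower: Igf2os, antisense to Igf2 (−2.41 ± 0.46, adjusted p = 0.00305), Prr33 (−1.70 ± 0.41, adjusted p = 0.0101), Lsp1 (−1.01 ± 0.17, adjusted p = 0.00148) and Ctsd, a lysosomal protease (−0.64 ± 0.13, adjusted p = 0.00412). None was called higher, and none of these neighbours was called at day 3. Mrpl23, 45.5 kb from the H19 start, had 0.54 ± 0.22 (adjusted p = 0.0889). Igf2os had 168 reads over all libraries and overlaps Igf2, and where counting did not use strand its reads and those of Igf2 cannot be told apart. The strand setting was not given in the sources used here. Some of the small RNA genes that lie within Rian and Mirg had rows of their own.

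**Figure D4:**
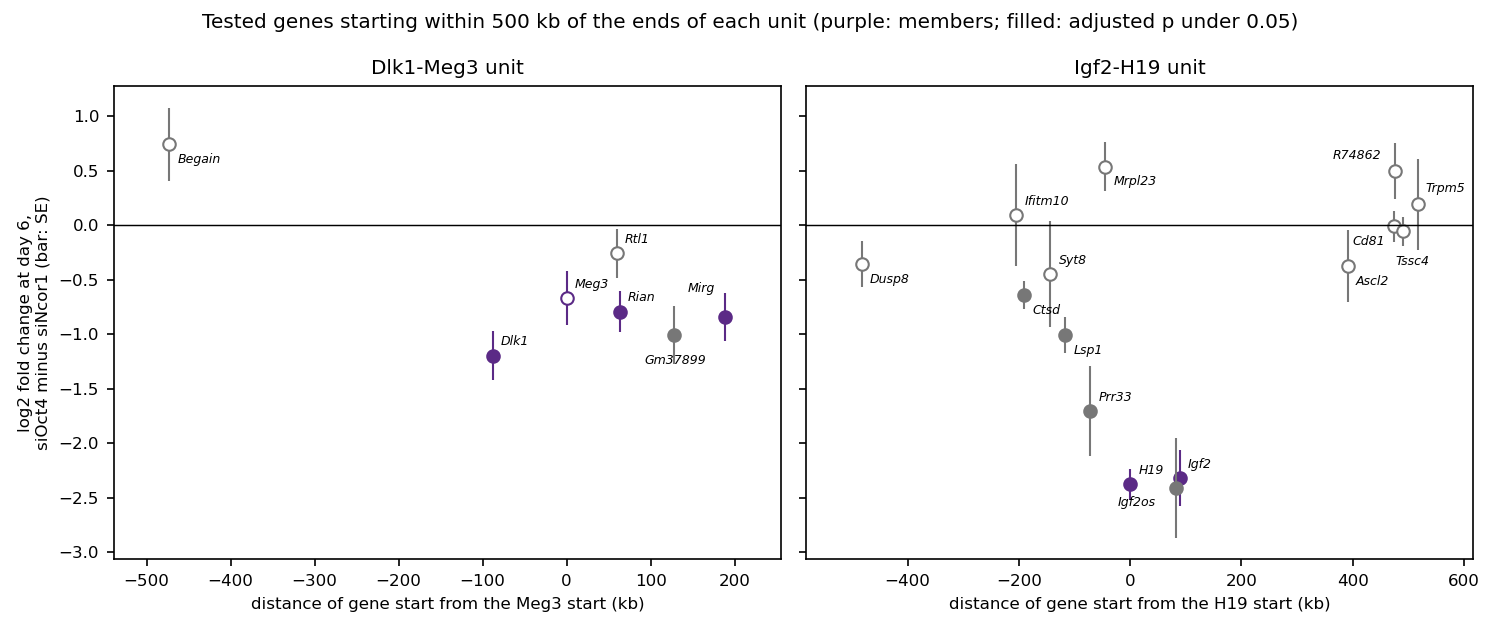
Day 6 log2 fold change of siOct4 over siNcor1 (bars, standard errors) for each tested gene that starts within 500 kb of the ends of the Dlk1-Meg3 locus (left) or the Igf2-H19 locus (right), against the distance of its start from that of Meg3 or H19 in kb. Members are purple and neighbours grey, filled where the adjusted p was under 0.05; H19, Igf2 and Igf2os lie between −2.41 and −2.32, and Mrpl23 between them and Prr33 lies at 0.54.

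Likeness of pattern was described by the root mean square difference of log2-cpm over the 8 libraries, each gene centred on its own mean. Among the 10 genes the closest pair was Dlk1 and Plagl1 (0.151), on different chromosomes, followed by Rian and Mirg (0.202) of the same locus. Igf2 and H19 stood at 0.395, and Dlk1 and Meg3 at 0.470. Cdkn1c was far from most, with H19 nearest among the 10 (0.490) and Plagl1 farthest (1.33). For each locus the centred log2-cpm values of its genes were averaged with equal weight, not summed. Outside the 10, the genes nearest to the Dlk1-Meg3 average were Prrx1 (0.0510), Arhgef10 (0.0611) and Runx2 (0.0632). Of these, Prrx1 and Runx2 encode transcription factors of mesenchymal cells. Among the 3 genes nearest to the Igf2-H19 average were Gata2 (0.297) and the paternally expressed Peg10 (0.239). Nearest to Dlk1 were F3 (0.120), Ikzf2 and Lyn, to Meg3 Hspg2 (0.144), Frmd4a and Smad7, to Rian Gnb4 (0.0805), Tdrd7 and Prnp, and to Mirg Atp6v0d1 (0.101), Olfml2b and B4galt1. Among the 3 nearest to Igf2 were Arhgef6 (0.332) and Peg10, and among those to H19 Gata2 (0.244) and Peg10. Nearest to Peg3 were Pparg (0.141), Klf6 and Runx1t1, to Cdkn1c Eps8l2 (0.147), Ppl and Gpld1, to Grb10 Atad2b (0.0576), Picalm and Ptprk, and to Plagl1 Rbms3 (0.0767), Ikzf2 and Filip1l.

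Other imprinted genes were mixed at day 6. Of 53 listed, 45 were in the table and 39 were tested, with 9 lower and 4 higher in siOct4 and a median log2 fold change of −0.26, where 18.6% of all genes tested were lower and 12.1% higher. Of the 20 tested that are listed as paternally expressed, 6 were lower and 4 higher. Peg10, a retrotransposon-derived placental gene, was lowest (−2.54 ± 0.19, adjusted p = 5.03e-05), with 8.53 and 8.80 log2-cpm in siNcor1 and 6.01 and 6.23 in siOct4 at day 6. Usp29, which neighbours Peg3 and starts opposite it, was lower too (−1.97 ± 0.33, adjusted p = 0.00161). Dio3, the deiodinase gene at the far end of the imprinted Dlk1-Meg3 domain, had 18 and 23 reads in siNcor1 and 2 and 13 in siOct4 at day 6 (−1.48 ± 0.50, adjusted p = 0.0429), a call lost under 5 of 9 other settings (adjusted p from 0.0591 to 0.109). It was lost too without any of the 4 libraries labelled siNcor1 (adjusted p from 0.0702 to 0.202) and without siOct4 replicate 1 of day 6 (−0.56, adjusted p = 0.277), and it had −2.40 without replicate 2. Nnat (0.97 ± 0.14, adjusted p = 0.000681), Peg12 (0.71 ± 0.14, adjusted p = 0.00366) and Mcts2 (0.63 ± 0.19, adjusted p = 0.0272) were higher. The call of Peg12 was lost without siNcor1 replicate 2 of day 6 (adjusted p = 0.0527), and that of Mcts2 with 2 groups in the fit or without siNcor1 replicate 1 or 2 or siOct4 replicate 2 of day 6 (adjusted p from 0.0589 to 0.149).

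Of the 19 tested that are listed as maternally expressed, 3 were lower at day 6 and none was higher, a share of lower genes no greater than the 18.6% of all genes tested. Whether the listed genes were expressed from a single parental copy in these cells was not measured. Phlda2, a restrainer of placental growth beside Cdkn1c in its imprinted domain, was lowest (−2.66 ± 0.42, adjusted p = 0.00128), with 119 and 126 reads in siNcor1 and 12 and 21 in siOct4. At day 3 it had 0 and 1 reads in siNcor1 and 4 and 1 in siOct4. Phlda2 passed the filter only through siNcor1 at day 6, at a mean of 10.2 CPM against 1.53 CPM or less elsewhere. For such a gene the filter favoured a lower value in siOct4. Osbpl5 (−0.95 ± 0.12, adjusted p = 0.000492) and Igf2r, the receptor that clears IGF2 (−0.93 ± 0.14, adjusted p = 0.000961), were lower by less. At day 3, 1 of the 39 was called, Nnat, which was then lower in siOct4 (−0.66, adjusted p = 0.0436).

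**Figure D5:**
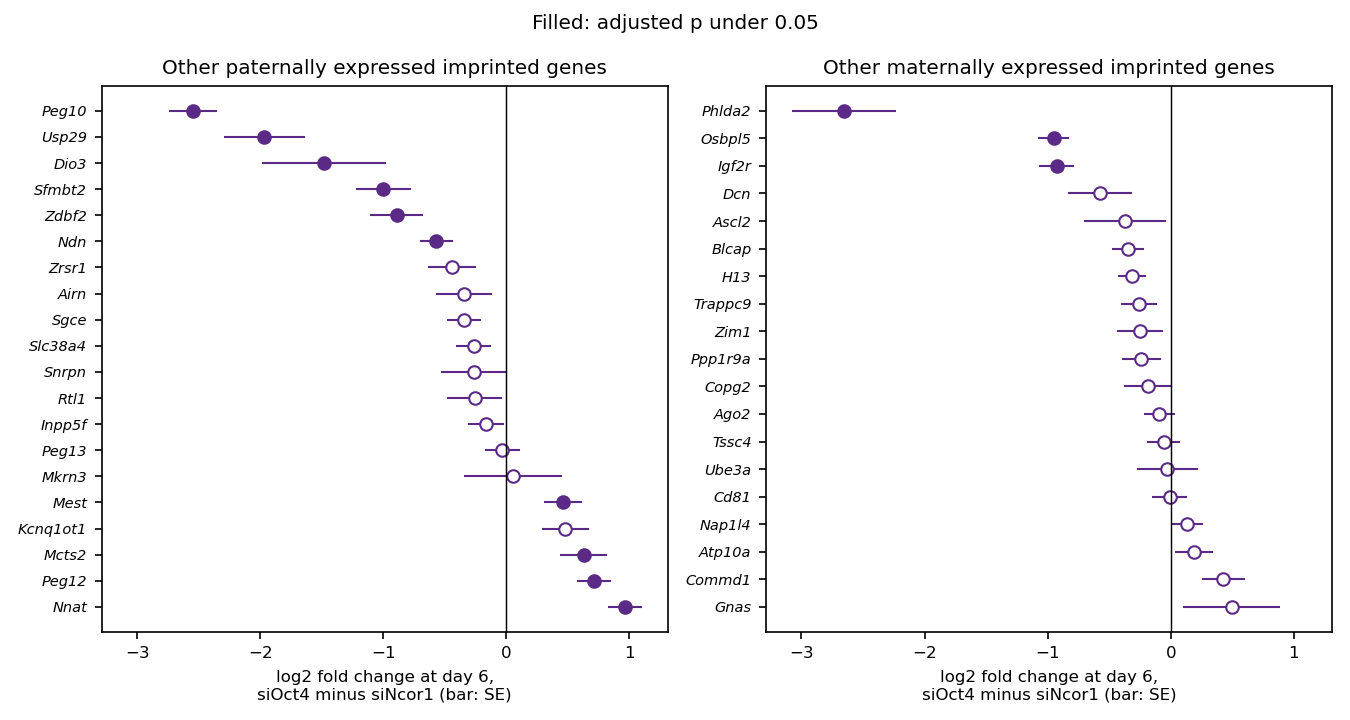
Day 6 log2 fold change of siOct4 over siNcor1 (bars, standard errors) for the other tested imprinted genes, 20 listed as paternally expressed (left) and 19 listed as maternally expressed (right), filled where the adjusted p was under 0.05. Filled points lie on both sides of 0 on the left, from −2.54 for Peg10 to 0.97 for Nnat, and below 0 on the right, down to −2.66 for Phlda2.

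In the pathway that Igf2 feeds, 8 of 15 tested genes were lower at day 6 in siOct4 and none was higher, with a median of −0.62, where 18.6% of all genes tested were lower and 12.1% higher. Igfbp3, which binds IGFs outside the cell, had −1.34 ± 0.15 (adjusted p = 0.000307), Irs1, the docking protein of both receptors, −1.09 ± 0.12 (adjusted p = 0.000261) and Igfbp7 −1.02 ± 0.19 (adjusted p = 0.00268). The receptors Igf1r (−0.34) and Insr (−0.25), which Grb10 binds, were not called. In the Notch pathway, to whose ligand family Dlk1 belongs, 2 of 10 were higher, the ligand Jag2 (1.68 ± 0.19, adjusted p = 0.000328) and the receptor Notch4 (1.26 ± 0.20, adjusted p = 0.00110), and 1 was lower, Notch3 (−0.95 ± 0.16, adjusted p = 0.00182), which are counts near those shares of all genes. At day 3 Notch4 was called the other way, lower in siOct4 (−1.05, adjusted p = 0.0251). It was the only call of its list then, and 1 of the 15 genes of the Igf2 pathway was called higher. Of all genes tested, 1.07% were called at day 3. Of 9 factors that keep imprints, Uhrf1 (0.82 ± 0.14, adjusted p = 0.00162) and Dnmt1 (0.42 ± 0.13, adjusted p = 0.0327), which copy methylation at replication, were higher, and Dppa3, which protects methylation in the early embryo, was lower (−2.43 ± 0.51, adjusted p = 0.00489). The call of Dnmt1 was lost under 2 of 9 other settings and without siNcor1 replicate 1 or 2 or siOct4 replicate 1 of day 6, with adjusted p up to 0.215, and that of Dppa3 without siNcor1 replicate 2 of day 6 (−2.31, adjusted p = 0.0693). Dppa3 had 0 reads in all 4 libraries of day 3. It passed the filter only through siNcor1 at day 6 (mean 7.05 CPM, against 1.30 CPM in siOct4), which favoured a lower value in siOct4. Of 7 close relatives of the members, 1 was lower, Cdkn1a, of the same inhibitor family as Cdkn1c (−0.49 ± 0.12, adjusted p = 0.0105); its call was lost without siNcor1 replicate 1 or 2 of day 6 (adjusted p = 0.0683 and 0.0795).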

How the data were processed

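Ribosome-depleted total RNA from 8 cultures was sequenced with paired reads. The authors aligned the reads to mm10 (GRCm38) with STAR 2.5.2b and deposited log2-cpm values made with edgeR 3.20.9. The tool that counted reads on genes was not given in the sources used here. On the linear scale, less the lowest value, the deposited values were whole multiples of 1 read over the range of lower counts that was checked (within 0.1 read, 100% of those values). Reads were recovered from this step. Higher counts, such as most of those of H19, were rounded on the same step without that check. At these depths 3 reads were worth 0.174 to 0.380 CPM, and bounds of this kind cover counting error only. Genes that averaged 1 CPM or more, 13866 in all, were tested in R 4.3.3 with limma 3.58.1 (lmFit, eBayes with trend), the 4 groups fitted together, with Benjamini-Hochberg adjustment over all of them. The design states biological replicates without further detail, so p-values measure the spread between these libraries. Counting noise alone did not account for the spread between replicates, whose chi-square over its degrees of freedom was 8.44 to 18.7. Gene positions came from GENCODE M21, and promoter and microRNA sequences from RefSeq (GRCm38.p6). All 10 members were named in each of the 5 comparisons; of each list up to 3 called genes per direction with the largest day 6 change, and of each member the 3 nearest genes, were named, except that 1 gene is not reported here. Igf1r, Insr, Rtl1, Begain and Mrpl23 were chosen after their values were seen. The members and lists were chosen with earlier results of these data known. Alternatives were other scalings, no filter, a pseudocount of 1 CPM, no variance trend, fewer groups in the fit, voom, the replicate number as a block and leaving out each library. The code was tested on simulated data. Figures were drawn with matplotlib 3.10.9.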

Additional observations from a re-analysis of the deposited data

Results flagged for a closer look

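In 8 genes the difference between the knockdowns changed from day 3 to day 6 by the interaction test of limma (adjusted p under 0.05). Each change was towards lower values in siOct4 relative to siNcor1. In that direction 12.9% of all genes tested passed, and in the other 7.77%. From day 3 to day 6 the log2 fold change of Cdkn1c was 1.97 in siNcor1 and 0.30 in siOct4. That of H19 was 1.21 and −0.68. On the log2 scale the change of the difference was −1.27 for Dlk1, −1.05 for Rian, −1.07 for Mirg and −1.93 for Igf2. It was −1.89 for H19, −1.61 for Peg3, −1.68 for Cdkn1c and −1.43 for Plagl1. Fibroblast markers moved with it, with all 7 passing the same test in the same direction (median −1.27), and their part in the result was not tested.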

How the results depend on the processing

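Each group had 2 libraries, so single libraries weigh heavily, and genes with few reads, such as Dlk1 with 31 in a library, are measured less precisely. With each library left out in turn, the lone library of a group being taken to vary like the others, 7 to 9 of the 10 genes were called between the knockdowns at day 6, 0 at day 3, 4 to 6 between the days in siNcor1, 9 in siOct4 and 5 to 8 for the change of the difference. Over all genes tested the counts ran from 3 to 375 at day 3 (148 with all libraries), 1398 to 4669 at day 6 (4251), 2360 to 5954 in siNcor1 (4819), 5397 to 7374 in siOct4 (7312) and 1009 to 3667 for the change (2867). The lowest were found without siNcor1 replicate 1 or 2 of day 3 for day 3, without siNcor1 replicate 2 of day 6 for day 6, and without siNcor1 replicate 2 of day 3 for the siNcor1 days and the change. The log2 ratio of the Dlk1-Meg3 sum ran from 0.14 to 0.39 at day 3 and from −0.85 to −0.63 at day 6, and that of the Igf2-H19 sum from −0.58 to −0.39 and from −2.52 to −2.23. Igf2 ran from −0.75 to −0.036 between the knockdowns at day 3.

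Without the variance trend 43 genes were called at day 3, and the change of the difference was lost for Rian and Mirg (adjusted p = 0.0753 and 0.0617). Fitted with only the siNcor1 libraries, Meg3 was called lower at day 6 (adjusted p = 0.0157). With the replicate number as a block, 8 of the 10 genes were called at day 6 and 8 for the change. Over all 13866 genes tested, the block raised the calls from 4251 to 4698 at day 6 and from 2867 to 3395 for the change. Igf2 was called higher at day 6 in siNcor1 (adjusted p = 0.0202). The block changed no other call of the 10. The gene-by-gene difference between a group's replicates, taken in the order of their numbers, was correlated with that of each other group. These correlations of replicate differences were −0.040 to 0.281, so the numbers were not taken to pair the cultures. Another setting used library totals without Gm26917, which held 15.5 to 29.1% of reads, and also dropped the library scaling of the deposited values. It moved the median of all genes between the days in siOct4 from −0.079 to 0.055. There 3812 genes were higher and 3444 lower in place of 3079 and 4233, and 9 of the 10 genes were called. The parts of Gm26917 and of the scaling in this shift were not separated.

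Values near 0 turned sign, none of them called. Between the knockdowns at day 3 these were Dlk1 (−0.25 to 0.39 with libraries left out, −0.055 among them, and below 0 without siNcor1 replicate 2 or siOct4 replicate 1 of day 3), Meg3 (−0.035 to 0.67, below 0 without siOct4 replicate 2), Peg3 (0.0040 without siOct4 replicate 1) and Grb10 (−0.13 with quantile normalization, −0.038 without Gm26917, −0.095 to 0.10 with libraries left out, −0.022 among them, below 0 without siNcor1 replicate 2 or siOct4 replicate 2). Between the days in siNcor1 these were Mirg (−0.022 with quantile normalization, −0.12 to 0.30 with libraries left out, −0.056 among them, below 0 without siNcor1 replicate 2 of day 3 or replicate 1 of day 6) and Peg3 (0.020 centred on medians, 0.16 with quantile normalization, 0.055 without Gm26917, 0.077 and 0.079 without siNcor1 replicate 1 of day 3 or of day 6). The causes were not tested.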
